A study of Mus musculus with 10 samples.

Results

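The Prader-Willi region of mouse chromosome 7 was examined through 5 imprinted genes, Snrpn, Ndn, Magel2, Mkrn3 and Ube3a, in DNA of mouse embryos at embryonic day 7.5 (E7.5). Cytosine positions were taken where they lay inside one of these genes or within 5000 bp of either of its ends, with gene positions from RefSeq on GRCm38, to which mm10, the build of the table, corresponds. This gave 291 positions of 2137824 in the table, and 5 of 38276 genes with at least 1 position under the same rule. Positions were found at the RefSeq 5' end of Ndn, Magel2, Mkrn3 and Ube3a, whereas neither outermost end of Snrpn had any within 5000 bp, and all 114 positions of Snrpn lay inside the gene. The series holds 5 samples of an arsenic group and 5 of a control group, all E7.5 embryos; the labels read here give no strain, dose, route, sex or number of embryos per sample. The deposited table carries 10 sets of read counts numbered 1 to 10, called library columns here, and none of these numbers names a group or a single sample. Arsenic and control were therefore not compared. The columns of both groups enter each range given below, so a group difference would widen a range without being seen as one.

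Imprinted genes are expressed from the allele of a single parent, under the control of regions that are methylated in the germ line of either the mother or the father. In the Prader-Willi region the imprinting centre lies at the start shared by Snrpn and Snurf, where DNA methylation comes from the egg, so that Snrpn, Ndn, Magel2 and Mkrn3 are expressed from the paternal chromosome. Ube3a is expressed from both chromosomes in most tissues and mainly from the maternal one in neurons, where a long antisense transcript from the Snrpn side silences the paternal copy; loss of the paternal genes in humans causes Prader-Willi syndrome and loss of maternal UBE3A causes Angelman syndrome.

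The promoters of Snrpn, Mkrn3 and Ube3a differed in how methylated their measured CpGs were, and their sequences are shown for that reason. They run 5' to 3' on the gene's own strand, from 250 bases before to 50 bases after the start, as given by RefSeq for GRCm38.p6. Capitals mark the CG pairs at which the table holds a measurement on at least 1 strand.
Snrpn: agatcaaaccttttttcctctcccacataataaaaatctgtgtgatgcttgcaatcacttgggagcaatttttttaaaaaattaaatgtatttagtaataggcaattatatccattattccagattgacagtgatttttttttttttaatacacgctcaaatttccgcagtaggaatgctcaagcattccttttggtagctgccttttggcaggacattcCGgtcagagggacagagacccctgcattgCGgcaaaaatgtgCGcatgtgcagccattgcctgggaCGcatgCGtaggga
Mkrn3: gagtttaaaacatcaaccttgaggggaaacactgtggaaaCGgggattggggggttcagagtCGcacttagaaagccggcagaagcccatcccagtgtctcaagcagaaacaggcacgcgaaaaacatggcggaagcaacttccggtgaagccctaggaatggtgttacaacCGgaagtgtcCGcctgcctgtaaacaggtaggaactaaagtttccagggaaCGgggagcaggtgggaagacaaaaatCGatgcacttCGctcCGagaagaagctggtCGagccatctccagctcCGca
Ube3a: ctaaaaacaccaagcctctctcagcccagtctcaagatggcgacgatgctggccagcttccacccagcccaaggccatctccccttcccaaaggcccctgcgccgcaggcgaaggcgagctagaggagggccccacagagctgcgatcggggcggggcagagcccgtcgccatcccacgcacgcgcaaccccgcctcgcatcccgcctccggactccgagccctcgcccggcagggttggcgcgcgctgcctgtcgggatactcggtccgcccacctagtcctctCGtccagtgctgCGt
The Snrpn sequence is chr7:60005150-60005449 on the minus strand, that of Mkrn3 chr7:62420104-62420403 on the minus strand and that of Ube3a chr7:59228500-59228799 on the plus strand. In the Snrpn promoter 5 of 7 CG pairs were measured, at 9 positions, and the level over their summed calls was 52.5%, with a range over the columns of 43.8 to 66.6%. In the Mkrn3 promoter 10 of 15 CG pairs were measured, at 17 positions. Their level was 11.4%, and the columns ranged from 6.18 to 20.2%. In the Ube3a promoter only 2 of 29 pairs were measured, both under 2%. Among 9450 autosomal RefSeq promoters with at least 3 measured positions, 94.3% were lower than Snrpn, 83.1% were lower than Mkrn3, and 5.49% lay between 40 and 60%.

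The letters TGCCGC, known as the core of the sequence that the imprint-protecting zinc finger protein ZFP57 recognises, were searched on both strands of these promoters. They occur once in the Snrpn promoter, from 2 bases before to 3 bases after the first transcribed base, read as GCGGCA on the printed strand, and in none of the printed Mkrn3 and Ube3a sequences. They also occur in 11.6% of all 32817 RefSeq promoters of this length. The CG inside them was methylated at 46.2% on the plus strand and 52.5% on the minus strand. The letters CCGG, the site of the enzyme MspI that is commonly used for reduced representation libraries, occur 1 time in the Snrpn promoter, 3 times in that of Mkrn3 and 2 times in that of Ube3a, and 0 times in those of Ndn and Magel2, which hold 11 and 10 CG pairs and had no measured position. CCGG occurs in 52.8% of all promoters of this length.

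Coverage added up over positions, so that a read is counted at every position it spans, ranged from 73509873 to 127743904 over the columns, with medians of 26 to 48 reads per autosomal position. Mean autosomal levels ranged from 40.1 to 42.7%. Column 9 deviated most from the median of the columns, by 7.32 percentage points per position on average against 5.45 to 6.68 in the others, and column 10 had more coverage on the X chromosome, 0.912 of the autosomal median against 0.750 to 0.788. Levels of the members over the 8 remaining columns were computed too, and they differed from those over all columns by less than the spread between columns. Most of the calls stay in such a sum, so this was a weak check. The tissue could not be checked by the methylation of marker genes, since it does not measure the share of a cell type.

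Snrpn encodes a component of the spliceosomal snRNPs of the brain, and Snurf is read from the same transcript. Near their shared start the DNA was methylated at an even, intermediate level. The 44 positions from -30 to 487 bp of the start (negative values upstream), chr7:60004712-60005229, had a level of 50.3% (95% Wilson interval 49.6 to 51.1%, 17221 calls). Each of the 44 positions lay between 39.9 and 56.8%. Over the columns the level was lowest in column 3 at 44.5%, had a median of 48.7% and was highest in column 4 at 59.1%. All columns thus lay within 10 points of 50%, and none approached the fully methylated or unmethylated state. The median coverage was 28 reads per position and column. With a column's own median coverage taken as its number of independent reads, a cautious choice where several fragments were read, the interval was 24.5 to 63.5% for column 3 and 42.2 to 73.6% for column 4. These intervals overlap, as those of the lowest and highest column also did in 8 of the 9 other parts of member genes described below, the exception being the pair of methylated positions inside Ube3a. Intervals this wide overlap readily, so the overlap does not show that the columns agreed. It was also found at the Mkrn3 start, where column 9 stood apart. Such intervals were not computed for other genes or for the upstream part of Snrpn.

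The evenness of this region was set against all other stretches of the table. Positions on the autosomes were joined into a cluster as long as the next lay within 1000 bp, which gave 25066 clusters of at least 20 positions, 4299 of them at a level between 40 and 60%. The SD of the position levels was 4.61 percentage points at the Snrpn start, where counting error alone gives 3.03 points, and had a median of 12.6 points over the 4299 clusters. Only 6 of the 4299 had a smaller SD. The counting error takes the calls of each position as independent, although neighbouring positions share reads. The clusters were not matched for length or read depth. The part of shared reads and cluster length in the evenness was not tested. In 344 of the 4299 clusters every position lay between 30 and 70%, as it did at Snrpn. Of the 6 more even clusters, chosen here by their values, 3 lay at or near the start of a gene of the list of other imprinted genes, which were Peg10 with an SD of 1.83 points, Airn with 3.62 and Plagl1 with 3.91. Another, with an SD of 3.94, lay inside Impact, a gene imprinted in the mouse. The level and its evenness do not tell the parental alleles apart, since the counts hold no information on them.

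**Figure D1:**
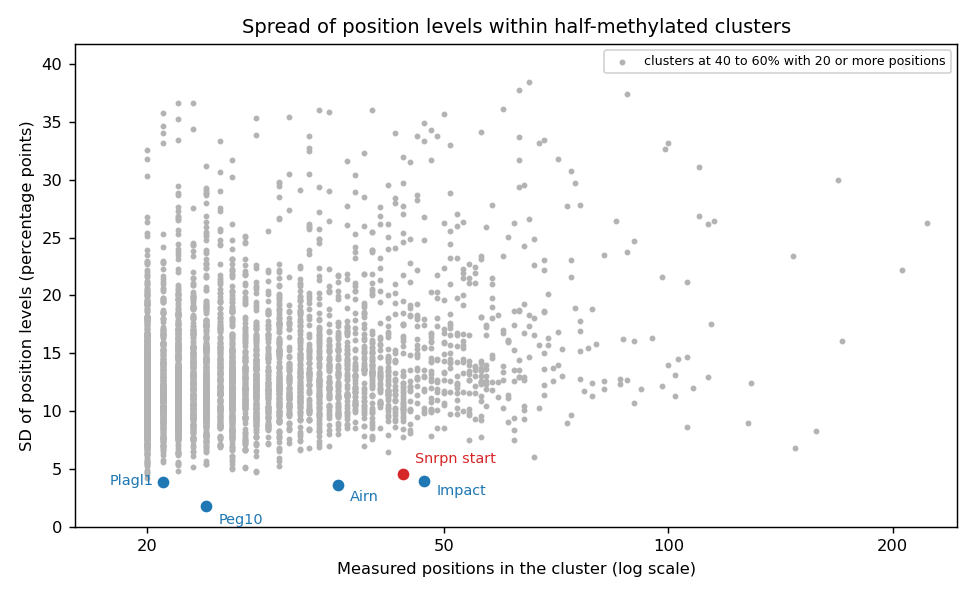
Each grey point is an autosomal cluster of at least 20 positions with a level between 40 and 60%, plotted by its number of positions (log scale) and the SD of its position levels in percentage points. The Snrpn start (red) has an SD of 4.61 points over 44 positions and lies at the lower edge with Peg10, Airn, Plagl1 and Impact (blue).

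Both strands of a CpG were measured at 17 CpGs of the Snrpn start. The minus strand, on which Snrpn is annotated, averaged 51.3% and the plus strand 46.9%, and the minus strand was higher at 16 of the 17 CpGs and in 7 of 10 columns. Over 253127 autosomal CpGs with a mean of both strands between 30 and 70% the mean difference of the minus over the plus strand was 0.0398 points, and the median absolute difference 4.48 points. Neighbouring CpGs share reads, so the 17 differences are not independent, and the minus strand held 10406 calls at these CpGs against 4558 on the plus strand. The part of read depth in the strand difference was not tested.

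The remaining 70 positions of Snrpn lay upstream of the shared start, in the long stretch that RefSeq assigns to the gene through its upstream first exons. They formed 15 clusters, of which 10 had at least 3 positions, with levels from 42.6 to 70.1%. The 26 positions up to about 20 kb upstream were methylated at 57.7%, with columns from 51.7 to 61.6%, and the 44 positions further upstream 49.7%, with a range of 46.5 to 52.3%. Between 30 and 70% lay 61 of the 70. In the 7 clusters with at least 5 positions the SD of position levels ranged from 5.20 to 15.1 points, against 4.61 at the start. The lowest of these rests on 5 positions and is close to that of the start. Among smaller clusters, chr7:60281051-60281347 had an SD of 3.12 points over 3 positions and chr7:60300720-60300766 had 1.64 over 2. The others with more than 1 position had 7.58 to 38.0 points. The highest cluster, at 70.1% over 11 positions, was chr7:60016498-60017119. No position lay within 1000 bp of any of the other 3 RefSeq starts of Snrpn. Over the whole gene the level was 52.2% (interval 51.7 to 52.6%), with a median over the columns of 51.7% and a range of 49.4 to 56.9%.

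**Figure D2:**
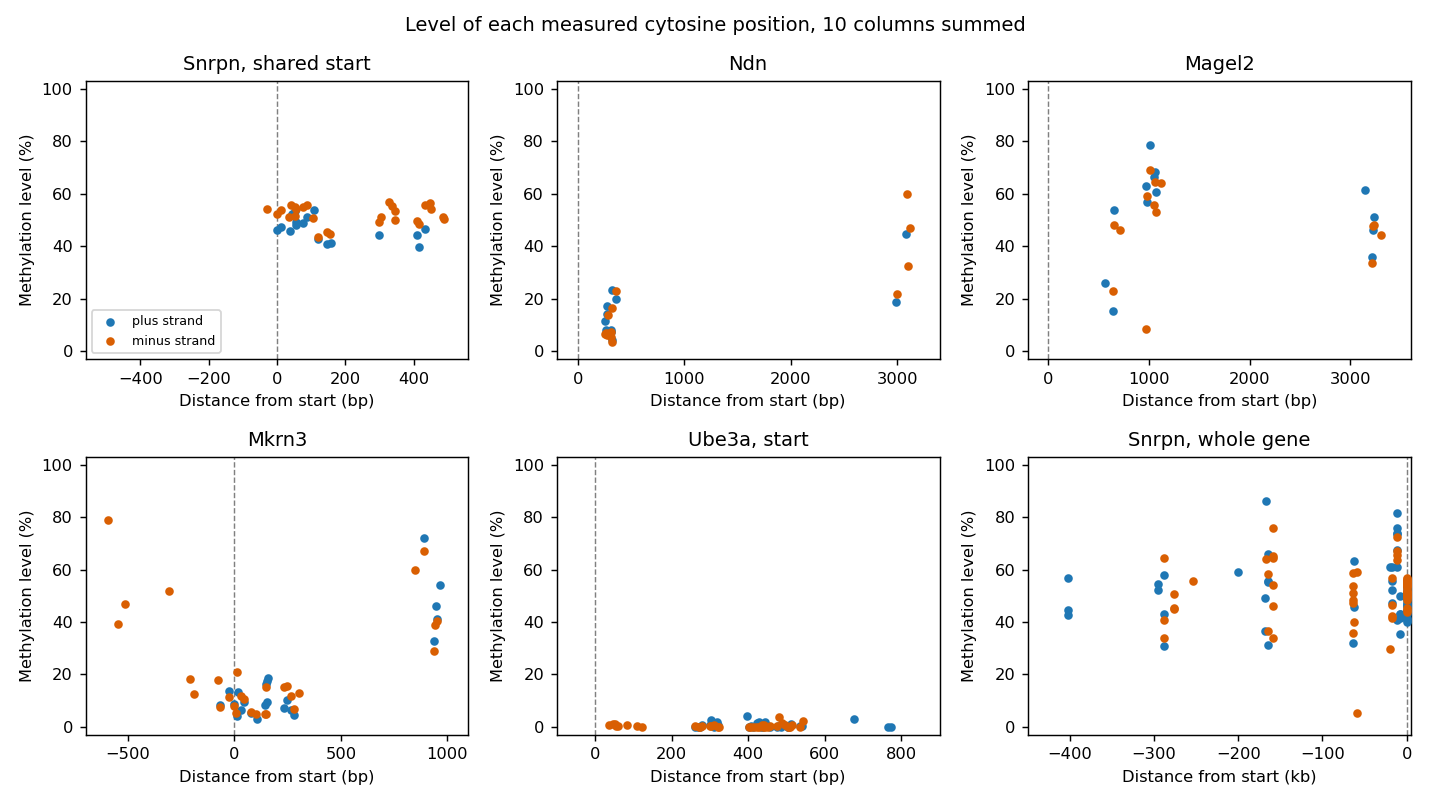
Each point is the methylation level in percent of 1 cytosine position over the 10 columns, plotted against its distance from the start of the gene in bp (kb for the whole Snrpn gene), with negative values upstream; blue marks the plus and orange the minus strand. Levels at the Snrpn start lie between 39.9 and 56.8%, those at the Ube3a start under 5% (the 2 methylated positions further inside are not drawn), and those of Ndn and Mkrn3 are low near the start and higher away from it.

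Ndn encodes necdin, a MAGE family protein of post-mitotic neurons. Its promoter was not measured, and the nearest positions lay inside the gene. The 18 positions from 256 to 362 bp after the start, chr7:62348533-62348639, had a level of 11.1% (interval 10.3 to 11.98%). Over the columns it was lowest in column 5 at 6.15%, had a median of 10.8% and was highest in column 3 at 21.1%. Column 3 had a median coverage of only 14 reads there, and the cautious interval of 7.57 to 47.6% overlaps that of column 5, 1.85 to 21.3%. In each of the 10 columns this part of Ndn was lower than the Snrpn start, by 23.4 to 49.0 percentage points. A second cluster of 6 positions past the end of the gene, 2994 to 3125 bp from the start, was methylated at 35.4%, with a median over the columns of 36.1% and a range of 29.8 to 43.8%, and it was higher than the first cluster in 10 of 10 columns. The level of Ndn over all 24 positions, 20.5%, therefore averages 2 unlike stretches.

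Magel2 encodes another MAGE protein, which works with ubiquitin ligases in protein recycling. Its 27 positions all lay inside the gene, at 49.1% (interval 48.1 to 50.1%), with a median over the columns of 49.8% and a range from 43.0% in column 8 to 58.0% in column 3. The first 6 positions, 570 to 712 bp after the start, had a level of 35.4%, with a median over the columns of 33.8% and a range of 27.3 to 42.3%. The other 21, from 972 to 3303 bp, had 54.5%, with a median of 54.4% and a range of 46.5 to 63.6%. The later part was higher than the first in 10 of 10 columns. Unlike the Snrpn start, the levels of single positions were spread widely, from 8.37 to 78.4%, with an SD of 15.3 points in the later part. The lowest position, in the later part, was the minus strand of a CpG with 62.9% on its plus strand, and it widens that SD. The next lowest position of the gene, in the first part, had 15.5%. Even so, 22 of the 27 positions lay between 30 and 70%. The 8 positions from 3148 to 3303 bp had levels from 33.5 to 61.3%, with an SD of 8.68 points. Positions of Magel2 thus differed more among themselves than those of the Snrpn start, which lay between 39.9 and 56.8%.

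Mkrn3 encodes a makorin RING finger protein, whose human counterpart is known for delaying puberty. It had 52 positions, from -593 to 965 bp of the start, with a level of 22.4% over all of them that differed between parts. The 38 positions from -210 to 302 bp, chr7:62419851-62420363, had a level of 10.6% (interval 10.1 to 11.1%), and 37 of them were under 20%. The 10 positions from 848 to 965 bp after the start had 47.9% (interval 46.4 to 49.4%), with a median over the columns of 49.0% and a range of 30.1 to 58.4%. The 4 upstream positions, from -593 to -306 bp, had 54.3%, with a range of 44.4 to 60.6%. The body was higher than the start in 10 of 10 columns, by 21.5 to 52.1 points. Limits between these parts were set after the values were seen.

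The start of Mkrn3 varied between columns. Its level was lowest in column 7 at 5.62%, had a median of 10.4% and was highest in column 9 at 20.4%, with column 1 next at 13.3%. Column 9 was also highest in the body of Mkrn3, at 58.4%, and in the cluster past Ndn, at 43.8%, but it had the second lowest level of the columns at the Snrpn start, 45.6%. Without column 9 the level of the Mkrn3 start was 9.70%. Over the whole window of Mkrn3 the columns spanned 18.6 points, against a median of 9.20 points in 2066 protein-coding gene ends with a number of calls within 1.5 times and a level within 10 points, of which 2.86% spanned more. Without column 9 the Mkrn3 columns spanned 11.7 points against a median of 8.63 in the same ends, and 19.5% spanned more. Column 9 was left out because it was the highest at Mkrn3, so the span there had to narrow. The other ends lost column 9 whether or not it was extreme there. These shares therefore do not tell how unusual the span is without its extreme column. For Ndn the columns spanned 11.6 points against a median of 10.8 in 896 like ends, and for Magel2 15.0 points against 13.2 in 1631 like ends. Each of these 3 windows joins stretches of unlike level, so a column's level also depends on how its calls divide between them. Column 7, lowest over the Mkrn3 window at 15.1%, had 57.8% in the body and 60.5% in the upstream positions. The part of this division in the spans was not tested.

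**Figure D3:**
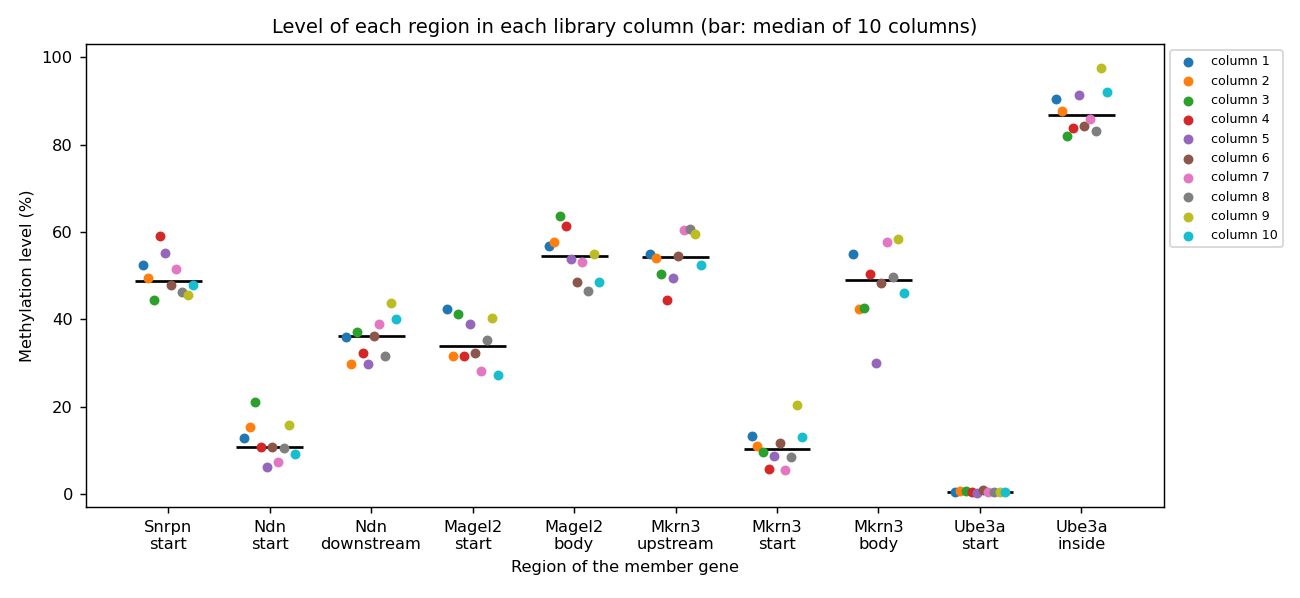
Each point is the methylation level in percent of 1 region of a member gene in 1 of the 10 library columns, and the bar is the median over the columns. The starts of Ndn and Mkrn3 lie at medians of 10.8 and 10.4%, the Snrpn start at 48.7% and the Ube3a start at 0.556%, with column 9 apart at the Mkrn3 start.

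Ube3a encodes the ubiquitin ligase E6-AP. Its start was unmethylated. The 72 positions from 36 to 774 bp after the start, chr7:59228786-59229524, had a level of 0.540% (interval 0.462 to 0.631%, 29060 calls), and the highest single position had 4.22%. Over the columns the level was lowest in column 5 at 0.321%, had a median of 0.556% and was highest in column 6 at 0.942%. Among 29415 autosomal protein-coding gene ends that had 3 or more positions within 5000 bp, 0.360% had a lower level. The columns spanned 0.621 points. The only other positions of the gene, 2 of them about 22 kb further inside, had a level of 87.6%, the columns ranging from 82.0 to 97.4%, and they raise the level over the whole gene to 5.89%.

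Ordered by the level of the measured positions nearest the start, the members were Snrpn, Magel2, then Ndn and Mkrn3, and Ube3a. These positions lay at unlike distances, for Magel2 no nearer than 570 bp and for Ndn no nearer than 256 bp, while those of Snrpn and Mkrn3 spanned the start. The limits of these parts of Ndn, Magel2 and Mkrn3 were set after the values were seen. The Snrpn start was above that of Ube3a by 43.8 to 58.7 points and above the first positions of Magel2 by 3.23 to 27.6 points, in 10 of 10 columns each. Ndn and Mkrn3 did not separate, since each was the higher in 5 columns, with differences of Mkrn3 from Ndn from -11.4 to 4.67 points. Both were above Ube3a in 10 of 10 columns. No column was highest at each member: column 4 was highest at Snrpn, column 3 at Ndn, column 1 at Magel2, column 9 at Mkrn3 and column 6 at Ube3a. Of all 291 positions of the members, 142, or 48.8%, lay between 30 and 70%, against 39.7% of autosomal positions. This share came mostly from Snrpn, with 105 of its 114 positions, or 92.1%. Magel2 had 81.5%, whereas Mkrn3 with 21.2%, Ndn with 16.7% and Ube3a with 0% were below the autosomal share.

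Genes of the same domain and its flanks were given by a list of 17 names, 16 of which were in the gene table and 11 of which had at least 3 positions at an end. Of 10 ends known from the promoter table to be 5' ends, 8 were under 20% within 5000 bp, as were 47.9% of all 19064 such autosomal ends, and the others were that of Snurf, which is the Snrpn start itself, and that of Oca2, a pigmentation gene, with 55.8% over 3 positions. Peg12, an intronless paternally expressed gene beyond Mkrn3, had a level of 6.99% over 70 positions within 1000 bp of its 5' end, and the columns ranged from 2.83 to 9.88%. In that window Peg12 was above the Ndn start in 3 columns and above the Mkrn3 start in 2. Within 5000 bp Peg12 had 9.39%, and it was above these short starts of Ndn and Mkrn3 in 4 and 5 columns. In the same 5000 bp window Ndn had 20.5%, with columns from 15.0 to 26.7%, and Mkrn3 22.4%, with columns from 15.1 to 33.7%. Gabrg3, a GABA receptor subunit gene, was at a level like that of Peg12, with 10.6% over 16 positions. The remaining 5' ends under 20% were lower within 5000 bp. Atp10a, a phospholipid flippase gene next to Ube3a, had 0.752%, Gabra5, which encodes a GABA receptor subunit, 1.12%, and Herc2, a ubiquitin ligase gene, 3.17%. Tubgcp5, a gamma-tubulin complex gene, had 2.63%, and the magnesium transporter genes Nipa1 and Nipa2 had 2.39% and 7.41%. Snhg14, the host of the antisense transcript to Ube3a, had no position at either end.

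The Snrpn start was then set beside the ends of other imprinted genes, within 5000 bp of an end. Of 16 listed genes, 15 were in the gene table and measured, and at 13 known 5' ends 8 had a level between 40 and 60%, against 22.5% of 19064 autosomal 5' ends in the same window. Against the 50.3% of the Snrpn start with its range over the columns of 44.5 to 59.1%, Airn had 51.6% with a range of 41.3 to 56.1%, Plagl1 49.1% with a range of 33.9 to 74.0%, Kcnq1ot1 46.3% with a range of 31.7 to 62.5% and Peg10 53.7% with a range of 41.3 to 68.1%. Snrpn and each of Airn, Plagl1 and Kcnq1ot1 was the higher in 5 of 10 columns, and Peg10 was above Snrpn in 6, so their order could not be told from the columns. Mest, a hydrolase gene, with 53.6%, the left end of H19, a noncoding RNA, with 49.3% and Peg3, a zinc finger gene, with columns from 37.7 to 57.0%, overlapped Snrpn likewise. Snrpn was above the 5' end of Zrsr1, with 47.0%, in 7 columns and above that of Meg3, with 43.0%, in 8. The Snrpn start was above the 5' end of Gnas, the gene of a G protein subunit, in 10 of 10 columns, by 1.66 to 16.4 points. The 5' end of Nnat, with 67.0%, was above Snrpn in 10 of 10 columns, by 7.71 to 27.1 points, and its 3' end, with 45.9%, was below Snrpn in 7. The 5' ends of Grb10 and Igf2r had 12.3% and 13.5%. The starts of Ndn, with 11.1%, and Mkrn3, with 10.6%, were near these levels, but they are shorter stretches than the 5000 bp windows. Within 5000 bp of their 5' ends Ndn had 20.5% and Mkrn3 22.4%, above Grb10 and Igf2r and below the 25.7% of Dlk1. The 5' ends of Dlk1, with 25.7%, and Inpp5f, with 3.90%, were below the Snrpn start in 10 of 10 columns. The 3' end of Inpp5f, with 86.7%, was above it in 10 of 10, as were the 3' ends of Meg3, Plagl1, Peg3 and Gnas, with 63.3 to 81.2%, and the right end of Peg10, with 77.3%.

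**Figure D4:**
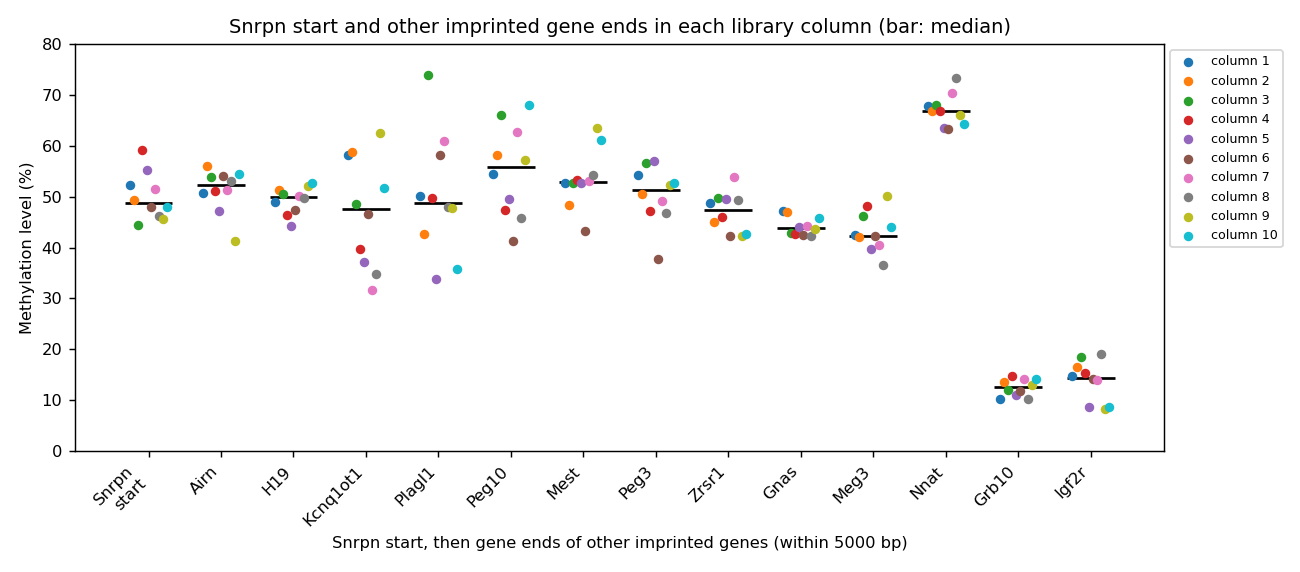
Each point is the methylation level in percent in 1 library column at the Snrpn start (left) and within 5000 bp of an end of other imprinted genes, and the bar is the median over the 10 columns. The Snrpn columns lie between 44.5 and 59.1% and overlap those of Airn, H19, Kcnq1ot1, Plagl1, Peg10, Mest and Peg3, while the 5' end of Nnat lies higher and those of Grb10 and Igf2r lower.

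Among 24204 other protein-coding gene ends with at least 10 positions, those closest to the members over the 10 columns were found by the mean absolute difference of levels. Cdx1, M6pr and Axl were closest to Ndn, with differences of 1.48 to 1.59 points. Oas1h and both ends of Apoa4 were closest to Magel2, with 2.03 to 2.46 points. Taf5, Pcdh1 and P4htm were closest to Mkrn3, with 2.24 to 2.71 points, and Ubap2, Lpxn and Zfp91 were closest to Ube3a, with 0.128 to 0.143 points. Snrpn had no position at its ends and was left out of this search.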

How the data were processed

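Reduced representation bisulfite sequencing, which reads methylated cytosines as C and unmethylated ones as T, was done on embryo DNA purified with phenol and chloroform, per the labels' protocols. Trim Galore, Bismark, methylKit and mm10 are listed in the submitters' processing notes, and their versions and settings were not given in the sources used here. Raw read counts were deposited, per the file headers, as coverage, methylated and unmethylated calls for each of 10 columns. The calls summed to the coverage in each row, and the minimum was 10 reads in each column. Of 2137826 rows, 2 repeated a position and were left out. The table keeps only positions covered in each column.

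No column number matched a single sample title, so 0 columns were tied to a sample and the planned permutation test of arsenic against control was not run. The columns are taken for the 10 samples because they are equal in number and the table belongs to the whole series. Levels are summed methylated calls over summed coverage, with 95% Wilson intervals, and are given per column as median and range without a test. Intervals cover counting error only and are narrower than the real error, since calls of the same read are not independent; those called cautious use the median coverage of the column as the number of reads. Strand and starts came from the RefSeq promoter table, which gives no exons. Of 166199 measured positions in these promoters 166193 fell on a CG of the stated strand. Gene lists and members were chosen with earlier results of these data known. Use of the promoter table, the limits between the parts of Ndn, Magel2 and Mkrn3 and the clusters named were set after the values were seen. Named genes were all members, all listed neighbouring and imprinted genes with at least 3 positions at an end, of which one is not reported here, and the 3 ends closest to each member end; Impact, Btbd11 and Gm32990 were named for their values and Snhg14 as the antisense host. The calculation of levels was tested on simulated data. Python 3.11.15, numpy 2.4.6, pandas 2.3.3, scipy 1.17.1 and matplotlib 3.10.9 were used.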

Additional observations from a re-analysis of the deposited data

Results flagged for a closer look

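The level of the Mkrn3 start in column 9, 20.4%, was far from the rest: the nearest, column 1, had 13.3%, a gap of 0.483 of the whole range, which is past Dixon's 95% critical value for 10 columns. Of 21 results examined in this way it was the only one, several of them share positions, and chance gives about 1 in 20. Column 9 was also the column that deviated most from the others over the genome. The 10 columns hold both groups of samples, and which group column 9 belongs to is not known.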

How the results depend on the processing

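No paired analysis was possible because the count columns carry no sample or group, and leaving samples out of a comparison of arsenic with control was not run for the same reason. Of 329 alternative values for 21 results, 313 moved by less than the SD between the columns and 16 by more. With at least 20 reads in every column the level over all of Ndn was 38.2% instead of 20.5%, since 4 of 24 positions were left, and that of Ube3a was 12.7% instead of 5.89%. With equal weight for each position Ube3a had 2.90%, and with a single strand of each CpG 8.99%, because its 2 methylated positions weigh differently. The other 12 concern gene ends, those of Ndn with at least 20 reads again and those of Ndn, Magel2 and Mkrn3 under narrower windows or only inside or outside the gene; within 1000 bp of its start Magel2 had 39.4%. Each of the 210 values without 1 column stayed within that SD. They ranged from 51.6 to 52.5% for Snrpn, 19.99 to 21.2% for Ndn, 48.5 to 49.97% for Magel2, 21.3 to 23.3% for Mkrn3 and 5.73 to 6.201% for Ube3a. Neither end of Snrpn and not the right end of Ube3a had a position, so they gave no value. None of the 18 positions of the Ndn start had at least 20 reads in every column, so its level of 11.1% could not be checked at that depth. Single columns rest on few reads, with a median coverage of 26 to 48 reads per autosomal position and down to 14 at the Ndn start in column 3. The span of the columns over Mkrn3 was 11.7 points without column 9, against 18.6 with it, an alternative chosen after seeing the data.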

Other observations

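Single positions in the region departed from their neighbours. At a CpG of Magel2, chr7:62377951-62377952, the plus strand had a level of 62.9% over 178 calls and the minus strand 8.37% over 227 calls, whereas the next CpG, 9 bp away, had 57.1% and 59.0%. Within the upstream part of Snrpn the position 60063735 had 5.26% over 304 calls, and the position 60063885, on the same strand, 59.1% over 298 calls. Of the clusters with position levels more even than the Snrpn start, 3 lay near no gene of the imprinted list, that inside Impact and 2 more. The cluster inside Btbd11 on chromosome 10 (chr10:85473429-85473857) had a level of 45.3% over 20 positions with an SD of 4.25 points, and a cluster 4227 bp from Gm32990 on chromosome 13 (chr13:110564276-110564485) had 46.0% over 20 positions with an SD of 4.53 points. These were picked by their values out of 4299.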
